A study of Mus musculus with 39 samples.

Results

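Nuclear RNA isolated by INTACT was compared with nuclear RNA isolated by FANS in batch 3, in 12 of the 33 nuclear RNA libraries that the labels list in 3 batches, of which 31 were used here. The libraries were chosen by the batch and the technique in their labels, 7 of FANS and 5 of INTACT. Of the 24421 genes in the table of the batch, 14440 had a mean normalized count of at least 5 over the 12 libraries and were tested. Both groups hold nuclei from the neocortex of mice that carry Arc creERT2 (TG/WT) together with the reporter R26 CAG-Sun1-sfGFP-Myc, as M/WT or as M/M, aged 13 to 16 weeks. The study used both sexes, and all 12 libraries of batch 3 held RNA of the Y-linked gene Ddx3y and little Xist. The mice received tamoxifen 5 h before a social interaction test and were killed on day 3. In this line a tamoxifen-dependent Cre is made where Arc is active, so that activated cells carry the fluorescent Sun1-sfGFP fusion on the nuclear envelope, and the labels name activated neuronal nuclei. All nuclei were first banded on an iodixanol gradient, and the groups differ in the step that followed. For INTACT, tagged nuclei were bound to magnetic beads through an antibody against GFP, whereas for FANS, nuclei positive for DAPI and for sfGFP were sorted by flow cytometry. The RNA of 10000 nuclei per library was used, with an input of 1.23 ng and 13 cycles of PCR. The study calls each batch a distinct biological source, so the libraries of a technique share their source, and the p values measure only the spread between these libraries, which may be technical.

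Small nucleolar RNAs (snoRNAs) guide the chemical modification of other RNAs and are mostly cut out of the introns of a host gene. H/ACA snoRNAs, whose symbols begin with Snora, direct the conversion of uridine to pseudouridine, and C/D snoRNAs, whose symbols begin with Snord, direct the methylation of the ribose. Small Cajal body RNAs (scaRNAs) act in the same ways on the RNAs of the spliceosome, and Rnu12 and Rmrp are small RNAs that work in the minor spliceosome and in the processing of ribosomal RNA. All of them are made and largely kept in the nucleus, each bound by a set of proteins. A row of such a gene can also hold reads from the precursor RNA of its host, and whether the counting used the strand is not given in the sources used here.

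The depth of the batch was even. FANS libraries held 4205665 to 5716318 reads on genes, with a median of 5372911, and INTACT libraries held 4944980 to 5131333, with a median of 5075776. None of 6 library measures, among them the number of genes with a read and the share of reads outside gene features, differed between the techniques by a two-sided exact permutation test over 792 splits (adjusted p from 0.572 to 0.61, smallest p that the design allows 0.00126). FANS replicates 6 and 7 stood apart on the second principal component, at -35.6 and -14.3, and held the largest shares of reads outside features, 85.9% and 87.5%, against 82.6 to 85.5% in the other 10 libraries. Counts that rest on these libraries are therefore also given without them. Arc itself had a log2 difference, INTACT minus FANS, of -0.07 (SE 0.087, adjusted p = 0.779), and Sun1 one of -0.05 (SE 0.047, adjusted p = 0.668).

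Most of the genes depleted in INTACT in batch 3 were small structured nuclear RNAs, although most of the tested RNAs of these classes did not pass. Of 102 tested H/ACA snoRNAs, C/D snoRNAs, scaRNAs and other small structured RNAs 38 were depleted, and the most abundant H/ACA snoRNA, C/D snoRNA and scaRNA were not among them. With limma on log2(normalized count + 1), 50 of the 14440 genes were depleted in INTACT (0.346%) and 2 were enriched (0.0139%), where a call needs 1.5-fold and a Benjamini-Hochberg adjusted p under 0.05. Of the 50 depleted genes, 19 were H/ACA snoRNAs, 12 were C/D snoRNAs, 5 were scaRNAs, 3 were microRNA rows and 2 were other small structured RNAs. The other 9 were Tac1, Kit, Rprm, Penk, Jun, Lars2, Drd1, Gm12238 and 5730408K05Rik. Gm12238 is annotated as a snoRNA inside an intron of G3bp1, and 5730408K05Rik is a non-coding RNA whose exon overlaps Snora57. In bulk nuclei, fewer nuclei of a type and less RNA per nucleus cannot be told apart. The number of enriched genes was 0 without FANS replicate 1 or INTACT replicate 3 or 5, 4 without INTACT replicate 1 or 2, 7 without FANS replicate 4 and 8 without FANS replicate 7. The number of depleted genes was 32 without INTACT replicate 3, 64 without FANS replicate 7 and 71 without FANS replicates 6 and 7.

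**Figure D1:**
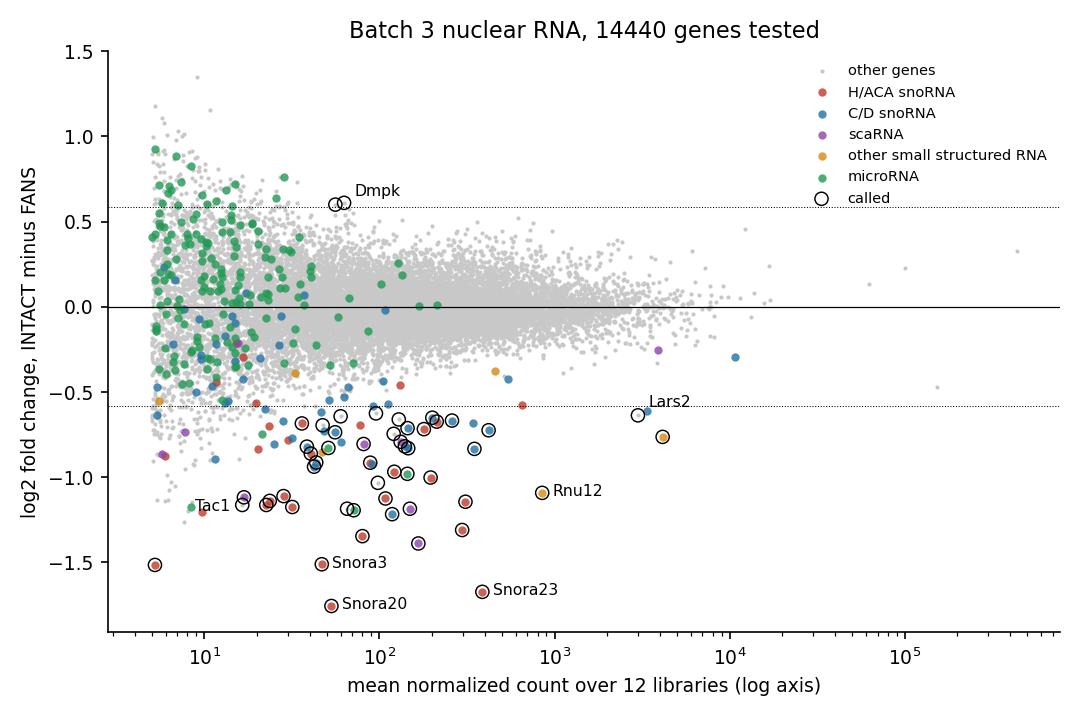
Log2 difference between INTACT and FANS (vertical axis) against the mean normalized count of each tested gene on a log axis (horizontal axis), with 1 point per gene and the small RNA classes in colour. The H/ACA snoRNAs lie below 0, with 31 of 31 tested, and the 2 enriched genes lie just above the line of 1.5-fold.

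Among the H/ACA snoRNAs, 31 of the 36 listed were tested, all 31 had a lower mean log2 value in INTACT, and 19 were called depleted. Of the 31, Snora35 and Snora5c had INTACT means under 5 and passed the filter only through FANS, where they had to be the higher, and of the other 29 all were lower and 18 depleted, with the same median. The log2 differences ranged from -1.76 to -0.21, with a median of -0.91 against a median over all tested genes of -0.004. In 13 of the 31 the techniques did not overlap with INTACT below FANS, against 85 of all tested genes (0.589%). Their share of the reads on genes was 0.0711 to 0.117% in FANS libraries (median 0.0758%) and 0.0323 to 0.0444% in INTACT libraries (median 0.0428%), so that the ranges did not overlap. The sequences of the 6 H/ACA snoRNAs described in detail are shown so that these guides, all with large falls, can be read. They are from RefSeq on GRCm38.p6 (mm10), with capitals for the letters ACA where these stand 2 to 4 bases before the 3' end, the box by which the class is named.
Snora23: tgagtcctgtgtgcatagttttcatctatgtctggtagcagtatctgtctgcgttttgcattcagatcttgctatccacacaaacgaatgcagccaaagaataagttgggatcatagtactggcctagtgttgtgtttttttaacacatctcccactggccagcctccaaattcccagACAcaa
Snora20: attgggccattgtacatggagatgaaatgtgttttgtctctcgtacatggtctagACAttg
Snora3: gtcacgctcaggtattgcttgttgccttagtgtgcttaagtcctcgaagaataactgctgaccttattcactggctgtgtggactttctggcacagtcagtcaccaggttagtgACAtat
Snora21: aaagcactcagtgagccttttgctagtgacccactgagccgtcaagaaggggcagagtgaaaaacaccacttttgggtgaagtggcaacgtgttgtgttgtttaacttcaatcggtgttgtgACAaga
Snora81: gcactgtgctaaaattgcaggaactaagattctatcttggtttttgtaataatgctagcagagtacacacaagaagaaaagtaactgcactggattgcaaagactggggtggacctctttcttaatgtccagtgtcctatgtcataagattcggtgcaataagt
Snora15: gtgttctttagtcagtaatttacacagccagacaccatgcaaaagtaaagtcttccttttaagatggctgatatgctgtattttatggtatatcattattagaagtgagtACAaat
Snora23 lies at chr7:110046364-110046547 in an intron of Ipo7, Snora20 at chr17:12922857-12922917 in Tcp1, Snora3 at chr7:109520132-109520251 in Rpl27a, Snora21 at chr11:97781639-97781766 in Rpl23, Snora81 at chr16:23110770-23110933 in Eif4a2 and Snora15 at chr5:129794561-129794676 in Cct6a, each on the strand of its host. The ACA stood at this place in 31 of the 36 listed H/ACA snoRNAs (86.1%), in 1 of 74 C/D snoRNAs (1.35%) and in 56 of 1172 microRNA rows (4.78%). It stood there in 17 of the 19 depleted H/ACA snoRNAs, and Snora81 is without it.

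Snora23 had the smallest p of all genes. Its normalized counts in FANS ran from 359 to 770 (median 500.5), and in INTACT replicates 1 to 5 they were 189, 177, 168, 104 and 204. Every INTACT library was below every FANS library, with FANS replicate 1 highest and INTACT replicate 4 lowest. The log2 difference was -1.67 (SE 0.15, adjusted p = 8.56e-08). Snora20 ran from 39.4 to 141 in FANS (median 75.8) and was 24.7, 24.7, 9.03, 24.6 and 22.3 in INTACT. The techniques again did not overlap, and INTACT replicate 3 was far below the other INTACT libraries, which lay close together. Its log2 difference of -1.76 (SE 0.258, adjusted p = 1.91e-04) was -1.49 without that library. Snora3 ran from 36.8 to 92.3 in FANS (median 69.7) and was 19.6, 39.1, 14.0, 17.5 and 20.3 in INTACT. Here INTACT replicate 2 reached into the FANS range while the other 4 INTACT libraries stayed below it, and the log2 difference was -1.51 (SE 0.23, adjusted p = 2.79e-04).

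Another 3, Snora21, Snora81 and Snora15, were picked for large falls without overlap, as Snora23 and Snora20 also were, so their values are a description. Snora21 ran from 77.7 to 133 in FANS (median 117) and was 39.1, 52.4, 35.1, 33.9 and 46.7 in INTACT, a log2 difference of -1.35 (SE 0.146, adjusted p = 2.27e-06). Snora81 ran from 273 to 604 in FANS (median 407) and was 163, 172, 117, 152 and 177 in INTACT, a log2 difference of -1.31 (SE 0.134, adjusted p = 8.80e-07). For Snora15, FANS libraries ran from 295 to 594 (median 429) and INTACT libraries held 216, 203, 109, 204 and 174, a log2 difference of -1.14 (SE 0.147, adjusted p = 2.99e-05). In all 3 FANS replicate 1 was highest. Snora47 (-1.18), Snora74a (-1.13) and Snora7a (-1.002) also did not overlap. Snora78 (-0.72) and Snora64 (-0.67) were called with overlapping groups, and the call of Snora78 was lost without FANS replicate 1 (-0.58) or INTACT replicate 3 (-0.63). The call of Snora64 held in all 12 fits that left out a library. Snora35, which was named after its values were seen, lies in an intron of the serotonin receptor gene Htr2c. It had 4.46 to 11.4 normalized counts in FANS (median 7.36) and 2.06, 1.03, 1.00, 2.05 and 4.06 in INTACT. It was the 1 depleted gene of the 50 that passed the filter of 5 only through FANS, so its call, 1 of the 19, is not read as a result, and in 3 of the 12 fits that left out a library it fell below the filter.

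The 12 H/ACA snoRNAs that were not called had log2 differences between -1.20 and -0.21, all negative. Snora70, the most abundant row of the class with 19.8% of its counts, ran from 404 to 1041 in FANS (median 886) and was 490, 529, 382, 530 and 517 in INTACT, with overlap and a log2 difference of -0.57 (SE 0.163, adjusted p = 0.0664). With each gene set against its own mean log2 value over the FANS libraries, the median of the class in single FANS libraries ran from -0.32 to 0.56 and in single INTACT libraries from -1.30 to -0.74. INTACT replicate 3 was lowest and FANS replicate 1 highest. Without single libraries the class median stayed between -1.001 and -0.88, and between 15 and 21 of its genes were called.

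**Figure D2:**
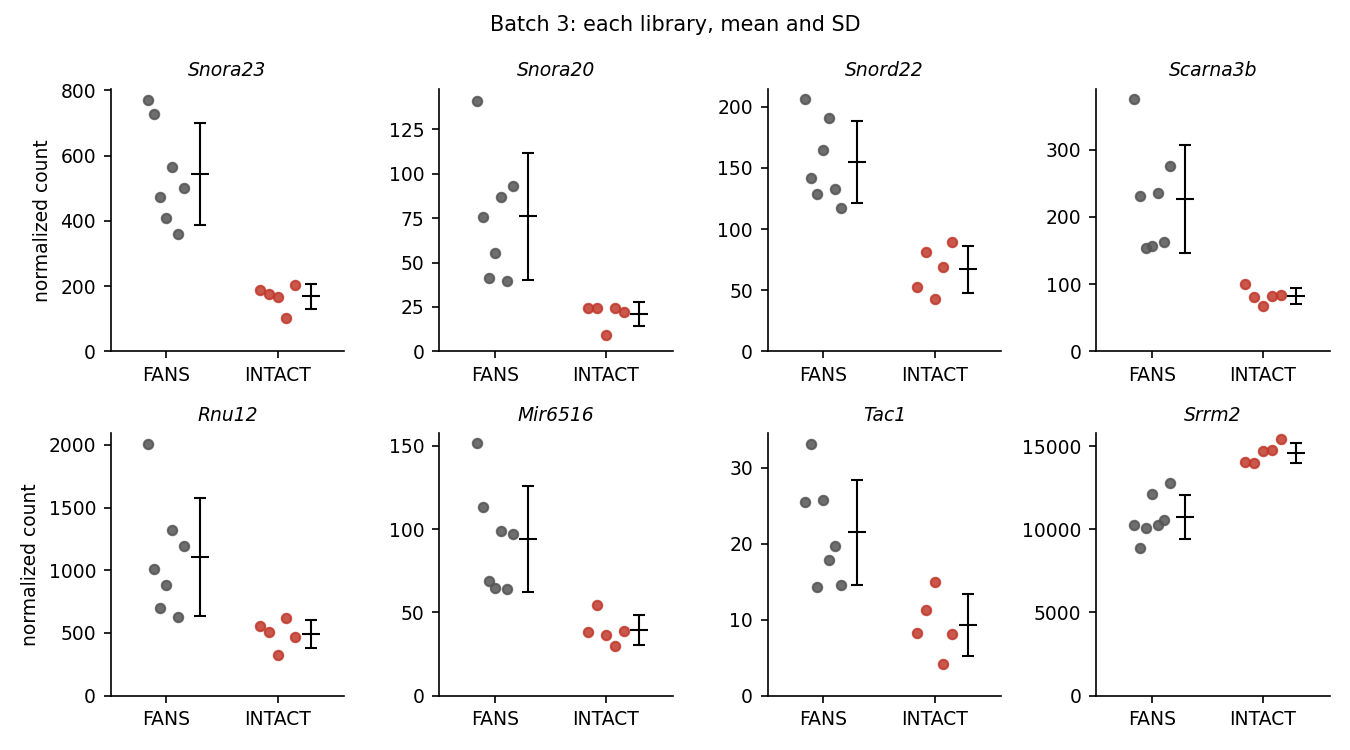
Normalized counts by library for Snora23, Snora20, Snord22, Scarna3b, Rnu12, Mir6516, Tac1 and Srrm2. Each library is 1 point, and bars give the mean ± SD of 7 FANS and 5 INTACT libraries. The INTACT points lie below all FANS points for the first 6 genes, overlap with them for Tac1 and lie above them for Srrm2.

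Among the C/D snoRNAs a smaller share passed. Of 74 listed, 56 were tested, 12 were called depleted (21.4%, against 61.3% of the H/ACA snoRNAs tested) and 52 had a lower mean log2 value in INTACT, against 51.13% of all tested genes, with a median log2 difference of -0.55 and a range from -1.22 to 0.24. Snord92 and Snord95, both uncalled, passed the filter only through FANS. Only Snord22 showed no overlap between the techniques. Set against the FANS mean of each gene as above, the class median was -0.50 to 0.68 in single FANS libraries and -0.81 to -0.17 in single INTACT libraries, with FANS replicates 2 and 7 below INTACT replicates 4 and 5. The 4 with a higher mean were Snord118, Snord42a, Snord72 and Snord88c, and none of them was called. The number of depleted C/D snoRNAs was 3 without INTACT replicate 3, 6 without INTACT replicate 5 or FANS replicate 1, 7 without INTACT replicate 2 and 21 without FANS replicate 7, so this count rests on single libraries more than that of the H/ACA class did. Sequences of 3 depleted members from RefSeq (mm10) are shown with capitals for TGATGA within the first 20 bases and CTGA within the last 15, the C and D boxes in their common form.
Snord22: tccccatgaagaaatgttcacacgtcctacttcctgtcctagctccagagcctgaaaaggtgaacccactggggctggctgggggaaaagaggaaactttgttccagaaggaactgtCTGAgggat
Snord104: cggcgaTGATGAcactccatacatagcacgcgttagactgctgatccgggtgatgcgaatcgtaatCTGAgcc
Snord47: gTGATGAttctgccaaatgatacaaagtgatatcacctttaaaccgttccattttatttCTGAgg
CTGA stood there in 72 of the 74 listed C/D snoRNAs (97.3%) and in 2 of the 36 H/ACA snoRNAs (5.56%), and TGATGA in 24 of the 74 (32.4%) and in 0 of the 36. Of the 12 depleted C/D snoRNAs, 12 held the CTGA and 3 held the TGATGA.

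Snord22, at chr19:8725866-8725991 in an intron of Snhg1, ran from 118 to 206 in FANS (median 142) and was 52.5, 81.2, 43.1, 68.8 and 89.3 in INTACT. The highest INTACT library stayed below the lowest FANS library, and the log2 difference was -1.22 (SE 0.153, adjusted p = 2.86e-05). Snord104 and Snord47 were chosen after their values were seen. Snord104 ran from 106 to 303 in FANS (median 175) and was 110, 84.3, 73.2, 139 and 87.3 in INTACT, so that INTACT replicates 1 and 4 fell within the FANS range (log2 difference -0.83, SE 0.168, adjusted p = 5.53e-03). Snord47, in an intron of Gas5, ran from 199.6 to 567.9 in FANS (median 273) and was 177, 167, 158, 256 and 178 in INTACT, with INTACT replicate 4 inside the FANS range (log2 difference -0.67, SE 0.165, adjusted p = 0.0285). The call of Snord47 was lost in 6 of the 12 fits that left out a library, those that dropped 1 of FANS replicates 1 and 6 or 1 of INTACT replicates 1, 2, 3 and 5, at -0.65 to -0.51. Summed over the class, C/D snoRNAs held 0.188 to 0.502% of the reads on genes in FANS (median 0.448%) and 0.267 to 0.304% in INTACT (median 0.287%), and these ranges overlapped. Snord15b alone made up 58.6% of that sum and Snord17 18.6%, and neither was called. Snord17 ran from 1645 to 6225 in FANS (median 3837) and was 2360, 2387, 2368, 2329 and 2912 in INTACT, with a log2 difference of -0.61 (SE 0.18, adjusted p = 0.0804).

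All 9 scaRNAs had lower mean log2 values in INTACT, with a median log2 difference of -0.81, and 5 were depleted, 3 of them without overlap. Scarna8 and Scarna17, both uncalled, passed the filter only through FANS. Summed over the class, the share of the reads on genes was 0.0764 to 0.118% in FANS and 0.0602 to 0.0874% in INTACT, and these ranges overlapped. Scarna3b and Scarna3a lie in introns of Dcaf5 and Cop1. The sequence of Scarna3b is shown from RefSeq (mm10, chr12:80391614-80391737, minus strand) with capitals for the 64 of its 124 bases that are also annotated as Mir1843a.
Scarna3b: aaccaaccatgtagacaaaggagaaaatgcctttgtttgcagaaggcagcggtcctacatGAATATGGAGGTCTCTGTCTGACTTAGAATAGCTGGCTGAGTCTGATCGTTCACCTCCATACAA
Scarna3b ran from 154 to 375 in FANS (median 232) and was 99.9, 80.2, 67.2, 82.1 and 83.2 in INTACT. The INTACT libraries lay close together below the whole FANS range, and the log2 difference was -1.39 (SE 0.158, adjusted p = 4.38e-06). The row of Mir1843a itself was at 0 in all 12 libraries. Scarna3a ran from 144 to 254 in FANS (median 179) and was 89.6, 116, 54.2, 66.7 and 105 in INTACT, again without overlap (log2 difference -1.19, SE 0.155, adjusted p = 3.94e-05). Scarna2, named after its values were seen, was 8.23 to 10.3 in INTACT against 15.98 to 34.1 in FANS (log2 difference -1.12, adjusted p = 6.58e-03). Scarna6 was 119, 130, 61.2, 56.5 and 106 in INTACT and 128 to 241 in FANS (median 141), which overlap in INTACT replicate 2. Its log2 difference of -0.79 (SE 0.172, adjusted p = 0.0106) lost its call without INTACT replicate 3 (-0.66) or INTACT replicate 4 (-0.63). Scarna13, which made up 87.1% of the counts of the class, had a log2 difference of -0.25 (adjusted p = 0.204).

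Of the other small structured RNAs, 14 were listed, 6 were tested, all 6 had lower means in INTACT (median log2 difference -0.66) and 2 were depleted. Vaultrc5, uncalled, passed the filter only through FANS, and the summed shares of reads, 0.0935 to 0.183% in FANS and 0.0513 to 0.102% in INTACT, overlapped. Rnu12, the U12 RNA of the minor spliceosome, has its own promoter and no host, and its RefSeq sequence (mm10, chr15:83149645-83149794, plus strand) is shown because it was the member of this class with the largest fall.
Rnu12: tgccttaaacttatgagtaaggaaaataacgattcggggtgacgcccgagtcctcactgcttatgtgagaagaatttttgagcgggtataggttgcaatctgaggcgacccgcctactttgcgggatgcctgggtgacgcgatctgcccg
It ran from 631 to 2008 in FANS (median 1006) and was 553, 508, 321, 620 and 470 in INTACT. No INTACT library reached the lowest FANS library, and the log2 difference was -1.09 (SE 0.179, adjusted p = 7.86e-04). Rmrp, the RNA of the ribonuclease MRP that cuts ribosomal RNA precursors, was added after its values were seen. It ran from 3413 to 7282 in FANS (median 4601) and was 3786, 4071, 1976, 1908 and 3197 in INTACT. INTACT replicates 1 and 2 fell within the FANS range while replicates 3, 4 and 5 lay below it, and the log2 difference of -0.76 (SE 0.158, adjusted p = 6.80e-03) lost its call without INTACT replicate 3 (-0.63). Rpph1, the RNA of the related ribonuclease P, had a log2 difference of -0.38 (SE 0.143, adjusted p = 0.202) and Rnu11, the partner of Rnu12, one of -0.85 (SE 0.258, adjusted p = 0.0900).

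None of the hosts of these RNAs was called. For 84 tested snoRNAs and scaRNAs the annotation gave a tested host on the same strand, 66 hosts in all, of which 0 were depleted by limma, edgeR or DESeq2 while 31 of the 84 small RNAs were depleted by limma. At an unadjusted p under 0.05, 10 of the 66 hosts passed (15.2%), against 13.75% of all tested genes. The median log2 difference of the hosts was -0.02, within a range from -0.48 to 0.27. The small RNA lay below its host in 78 of 84 pairs, with a median difference of -0.65, and for the H/ACA class in 30 of 30. Snora35, Snora5c, Snord92 and Scarna8 are among these pairs. They passed the filter only through FANS, where they had to be the higher, so their pairs are not read as a result. For the strongest examples the host values were -0.13 for Ipo7, -0.09 for Tcp1, -0.08 for Rpl23, -0.01 for Eif4a2, -0.28 for Cct6a, 0.04 for Snhg1 and -0.10 for Dcaf5. At an adjusted p under 0.05 alone, 1 host was lower, Rpl37 (-0.48, adjusted p = 0.0300), whose snoRNA Snord72 was among the 4 with a higher mean, and 1 was higher, Srcap (0.27), the host of Snora30. Of the 15 tested non-coding RNAs whose known role is to carry snoRNAs, Gas5 and the Snhg genes, 0 were called by limma, edgeR or DESeq2 and 2 had an unadjusted p under 0.05, with a median of -0.02.

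**Figure D3:**
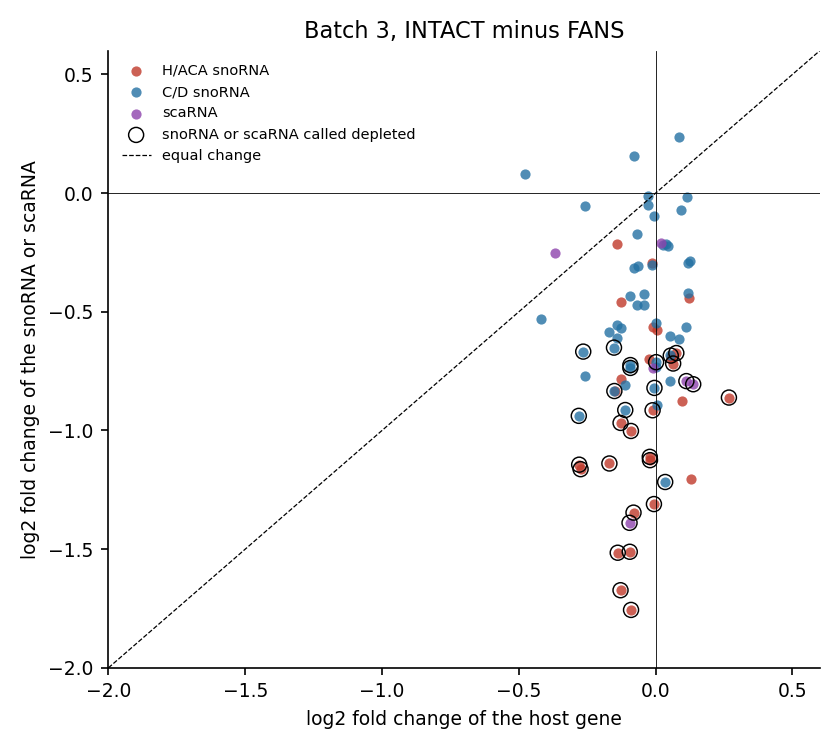
Log2 difference (INTACT minus FANS) of 84 snoRNAs and scaRNAs (vertical axis) against that of the host gene (horizontal axis), with 1 point per pair and colours for the classes. The hosts spread over -0.48 to 0.27 around 0, and 78 of the 84 points lie below the diagonal of equal change.

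The transcripts of the proteins that assemble with these RNAs did not pass the limma test either. None of 13 genes of H/ACA particles and Cajal bodies, of 11 genes of C/D particles or of 11 proteins of the ribonucleases MRP and P passed the adjusted p in limma, edgeR or DESeq2, with medians of -0.08, -0.01 and -0.11. At an unadjusted p under 0.05 they gave 1, 2 and 0 genes, and all tested genes gave 1985. Of 24 genes for small RNA processing and the nuclear exosome, Srrt, which links the cap of nascent RNAs to their processing, was higher by 0.30 (SE 0.058, adjusted p = 3.63e-03) without reaching 1.5-fold, and the median was 0.003.

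MicroRNA rows, which are as short as many snoRNAs but often lie inside longer transcripts, had a median above 0. Of 1174 listed, 175 were tested, 119 of them had a higher mean in INTACT, the median log2 difference was 0.13, and 3 were depleted (1.71%), against 0.346% of all tested genes. Of the 175, 12 had a mean under 5 in 1 technique, in INTACT for 4 of them, and had to be higher in the other. Among the other 163, 52 were lower and 3 depleted, with a median of 0.13. Among rows with an annotated length under 100 bases, the median was 0.16 over 145 microRNA rows and -0.55 over 51 C/D snoRNAs. The mature arms of 2 of the depleted rows are printed from RefSeq, with the seed (bases 2 to 8) in capitals, to show that the 4 seeds differ.
mmu-miR-6516-5p: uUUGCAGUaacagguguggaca
mmu-miR-6516-3p: uCAUGUAUgauacugcaaacag
mmu-miR-3068-5p: uUGGAGUUcaugcaaguucuaacc
mmu-miR-3068-3p: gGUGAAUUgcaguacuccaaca
The counts are of the precursor rows and not of these mature forms. Mir6516, at chr11:117077348-117077457 in Snhg20, ran from 63.9 to 151 in FANS (median 97.2) and was 38.1, 54.5, 36.1, 29.8 and 38.6 in INTACT, without overlap (log2 difference -1.19, SE 0.181, adjusted p = 2.63e-04), while Snhg20 had -0.01. Mir3068 ran from 47.2 to 121 in FANS (median 53.6) and was 37.1, 33.9, 24.1, 46.2 and 29.4 in INTACT. FANS replicate 1 was far above the other FANS libraries, which ended at 61.5, and the difference of -0.83 (SE 0.193, adjusted p = 0.0180) lost its call without INTACT replicate 3 (-0.71) or INTACT replicate 5 (-0.78). Mir6236 ran from 102 to 262 in FANS (median 184) and was 112, 112, 91.3, 96.5 and 48.7 in INTACT, with overlap (log2 difference -0.98, SE 0.177, adjusted p = 1.98e-03).

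The depleted protein coding genes included neuropeptide precursors and a dopamine receptor. Tac1, which encodes substance P, had few reads, from 14.3 to 33.1 normalized counts in FANS (median 19.7) and 8.23, 11.3, 15.0, 4.11 and 8.12 in INTACT. INTACT replicate 3 lay inside the FANS range, and the log2 difference of -1.16 (SE 0.277, adjusted p = 0.0211) was no longer called when any of FANS replicates 1 and 2 or INTACT replicates 1, 4 and 5 was left out, where it was -1.15 to -0.93. Penk, the precursor of the enkephalins, ran from 87.5 to 228 in FANS (median 156) and was 81.3, 102, 103, 92.4 and 89.3 in INTACT. The INTACT libraries lay close together at the low end of a wide FANS range, and the difference of -0.66 (SE 0.151, adjusted p = 0.0159) was not called once FANS replicate 2 (-0.56) or INTACT replicate 1 (-0.61) or 5 (-0.65) was left out. Drd1, the D1 dopamine receptor, ran from 95.4 to 125 in FANS (median 117) and was 73.1, 97.7, 58.2, 81.1 and 55.8 in INTACT. Only INTACT replicate 2 reached the FANS range, and the difference was -0.63 (SE 0.126, adjusted p = 5.40e-03), with the call lost without INTACT replicate 3 (-0.55) or INTACT replicate 5 (-0.54). These 3 genes mark projection neurons of the striatum, which borders the cortex. In a list of such markers written after their values were seen, 10 genes were tested, these 3 among them, so its counts are no further support. The 10 had lower means in INTACT, as 51.13% of all genes did, and no other member was depleted, with a median of -0.29 and a summed normalized count of 2849 to 3220 in FANS and 2670 to 2940 in INTACT, and their part in the result was not tested. Drd2 (-0.42, adjusted p = 0.549) of that list did not pass.

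Kit, a receptor tyrosine kinase, had the firmest fall among the protein coding genes. It ran from 120 to 179.8 in FANS (median 145) and was 76.2, 92.5, 83.3, 74.9 and 103.5 in INTACT. The techniques did not overlap, and the log2 difference of -0.75 (SE 0.112, adjusted p = 2.28e-04) kept its call in all 12 fits that left out a library. Jun, a subunit of the transcription factor AP-1, ran from 57.3 to 92.4 in FANS (median 65.2) and was 50.4, 47.3, 51.2, 41.1 and 34.5 in INTACT. It did not overlap either, but its difference of -0.64 (SE 0.143, adjusted p = 0.0126) lost its call without FANS replicate 2 (-0.58) or INTACT replicate 5 (-0.55). Rprm, a regulator of the cell cycle, ran from 38.9 to 65.0 in FANS (median 59.6) and was 41.2, 38.0, 26.1, 34.9 and 32.5 in INTACT. FANS replicate 7 was far below the other FANS libraries, which began at 54.0, and the difference of -0.70 (SE 0.154, adjusted p = 0.0123) lost its call without INTACT replicate 3 (-0.60). Lars2, a mitochondrial leucyl-tRNA synthetase, ran from 2473 to 4129 in FANS (median 3791) and was 2415, 2721, 2327, 2207 and 1629 in INTACT, with FANS replicate 7 lowest of its group (log2 difference -0.64, SE 0.107, adjusted p = 9.13e-04, lost without INTACT replicate 5 at -0.52). Rn45s, the ribosomal RNA precursor, was also lowest in FANS replicate 7. FANS libraries held 68256 to 241904 (median 176425) and INTACT libraries 110157 to 146363, with a log2 difference of -0.47 (SE 0.178, adjusted p = 0.204).

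Of 20 immediate early genes tested, Jun was the one that passed in limma, edgeR and DESeq2. In the list 14 had lower means in INTACT, with a median of -0.08, and 1 was depleted. At an adjusted p under 0.05 with no fold threshold, 75 genes were lower in INTACT (0.519%) and 171 were higher (1.18%). The 75 became 36 without INTACT replicate 3, 46 without INTACT replicate 5, 185 without FANS replicate 4 and 187 without FANS replicate 7. The 25 lower genes under 1.5-fold included Bdnf (-0.40, adjusted p = 0.0300) and Klf10 (-0.44, adjusted p = 0.0315), which were picked from that list after it was seen. Of 78 ribosomal protein genes 57 had lower means, with a median of -0.09, and 2 were lower by the adjusted p alone, Rpl7 (-0.49, adjusted p = 0.0165) and Rpl37. Of 75 genes of oxidative phosphorylation 52 had lower means, with a median of -0.09, and Cox6c (-0.38, adjusted p = 0.0362) was lower by the adjusted p alone. Of 13 heat shock genes 12 had lower means, and Hspa8 (-0.41, adjusted p = 0.0458) was the one that passed in limma and DESeq2 passed 0. Of 27 genes of the endoplasmic reticulum chaperones and the unfolded protein response 22 had lower means (median -0.17), against 7383 of all 14440 genes (51.13%), and 16 of the 27 had an unadjusted p under 0.05, against 1985 of all genes (13.75%). None of these 27, and 0 of 30 replication-dependent histone genes (median -0.09, 2 at an unadjusted p under 0.05), passed the adjusted p in limma or edgeR, and DESeq2 gave 1 in each list.

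In the other direction the changes were small and many. The 171 genes higher at an adjusted p under 0.05 had log2 differences from 0.19 to 0.61, with a median of 0.32, and 88 of them showed no overlap between the techniques, against 144 of all tested genes (0.997%) with INTACT above FANS. The 171 were chosen by the same values, so nothing is read from this count. The 2 that reached 1.5-fold were Dmpk, a protein kinase, and Igflr1, a receptor. Dmpk ran from 39.4 to 62.2 in FANS (median 52.4) and was 69.0, 71.0, 97.3, 73.9 and 82.2 in INTACT, and Igflr1 ran from 40.6 to 53.4 in FANS (median 45.1) and was 67.9, 61.7, 82.2, 64.7 and 74.1. Both groups stood apart, with log2 differences of 0.61 (SE 0.141, adjusted p = 0.0168) and 0.60 (SE 0.131, adjusted p = 0.0112), and neither call held when FANS replicate 1 or 6 or INTACT replicate 3 or 5 was left out, where the differences stayed between 0.53 and 0.59. Leaving out FANS replicate 7 ended the call of Igflr1 too (0.58). Coro6, which binds actin and had the smallest p in this direction, was 481 to 604 in FANS (median 499) and 687, 739, 762, 719 and 846 in INTACT (log2 difference 0.52, SE 0.067, adjusted p = 2.99e-05). Srrm2, a scaffold of nuclear speckles, was 8881 to 12806 in FANS (median 10275) and 14068, 13967, 14726, 14737 and 15443 in INTACT (log2 difference 0.45, SE 0.066, adjusted p = 1.83e-04). Neat1, the non-coding RNA of paraspeckles, was 262 to 366 in FANS (median 294) and 497, 407, 462, 429 and 370.4 in INTACT (log2 difference 0.50, SE 0.082, adjusted p = 8.51e-04). All 3 were above every FANS library, whereas Malat1 overlapped (0.33, SE 0.109, adjusted p = 0.130). The number of higher genes was 65 without INTACT replicate 3, 68 without INTACT replicate 5, 299 without FANS replicate 4 and 327 without FANS replicates 6 and 7.

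The higher genes were rich in G and C. Their exons had a median GC content of 57.8%, against 49.7% over all tested genes with a value, and all 171 had one. Over protein coding genes grouped by GC content, the share that was higher at an adjusted p under 0.05 went from 0% of 551 genes under 40% GC to 6.63% of 588 genes at 60% GC or more, and the median log2 difference went from -0.04 to 0.09. The same medians were -0.04 and 0.12 in batch 2 and -0.04 and 0.26 in batch 1. Relative to the FANS means, the genes at 60% GC or more had medians of -0.10 to 0.06 in single FANS libraries and 0.04 to 0.17 in single INTACT libraries, which overlap. Among 37 genes of splicing and mRNA processing 27 had higher means (median 0.03) and Srrm2 was the one that passed in limma, while DESeq2 passed 2 genes, among 340 Zfp zinc finger genes 3 were higher and 1 was lower by the adjusted p (median -0.01), and 0 of 15 nuclear envelope genes (median 0.03) and 0 of 104 genes whose symbols end in os, most of them opposite-strand transcripts (median 0.04), passed. At an unadjusted p under 0.05 there were 2 and 5 of these, and edgeR and DESeq2 gave 0 in both lists.

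**Figure D4:**
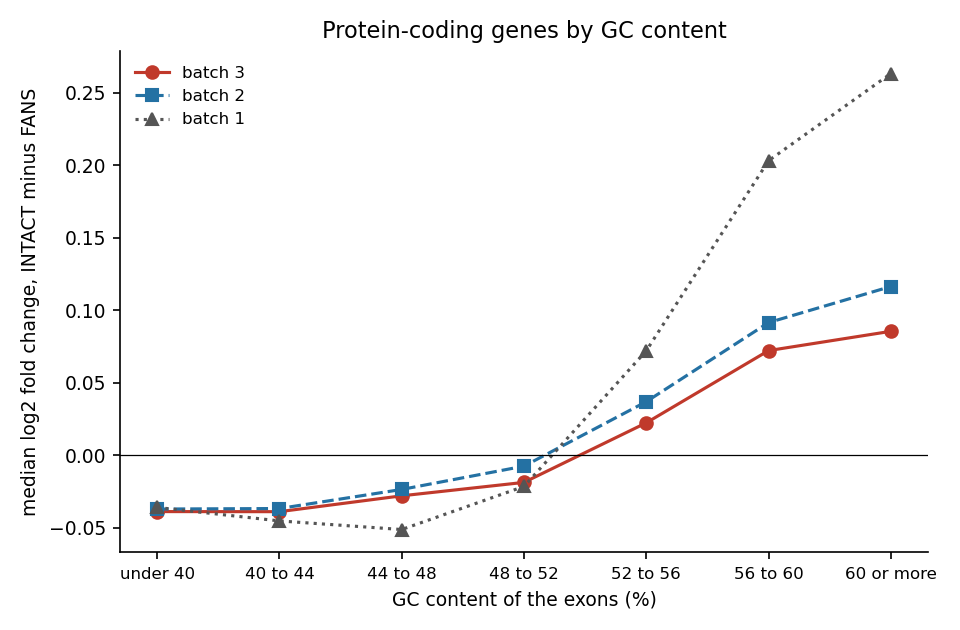
Median log2 difference (INTACT minus FANS) of protein coding genes in 7 bins of exonic GC content, with 1 line per batch. In batch 3 the medians go from -0.04 in the bin under 40% GC to 0.09 in the bin of 60% GC or more.

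Of the glial markers, 1 passed the limma test in batch 3, and none was called. Of 20 oligodendrocyte genes 19 had higher means in INTACT, with a median of 0.22 and summed normalized counts of 2311 to 3166 in FANS and 2819 to 3516 in INTACT, and 0 passed the limma test, 3 of the 20 had an unadjusted p under 0.05 (13.75% of all genes did), and edgeR and DESeq2 each put 1 past the adjusted p. Mobp, a myelin protein, had the smallest p of the list (0.48, SE 0.13, adjusted p = 0.0533). Of 16 astrocyte genes 9 had higher means (median 0.04) and Bcan, which encodes brevican, was higher without reaching 1.5-fold (0.50, SE 0.114, adjusted p = 0.0155), while Slc1a3 was at 0.16 (adjusted p = 0.814) and Apoe at -0.02 (adjusted p = 0.976). None of 14 excitatory neuron genes (median -0.12), 10 inhibitory neuron genes (median -0.13), 5 genes of oligodendrocyte precursors (median 0.01), 3 of microglia (median -0.02), 5 of vascular cells (median 0.31) or 1 of blood (0.10) passed in limma or edgeR. DESeq2 put 2 of the excitatory genes past the adjusted p, and 8 of the 14 had an unadjusted p under 0.05 in limma, against the same 13.75% of all genes. In batch 2 the oligodendrocyte median was 0.55 with 8 of 20 enriched, against 14 enriched genes in all (0.0941% of 14876), and in batch 1 it was 0.61 with 12 of 20 enriched, against 609 in all (4.03% of 15114). The batch 3 effect was called below that of batch 1 for 4 of the 20, against 656 of 14387 genes (4.56%). It was called below that of batch 2 for 0, as for 0 of all 14357 genes.

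The values of the small RNAs were then compared with the other 2 batches. In batch 2, 5 genes were depleted (0.0336%), the H/ACA median was -0.25 with 25 of 32 lower, the C/D median was -0.06 and the scaRNA median was -0.18. By an interaction term in limma, 0 of 14357 genes had a batch 3 effect that was called below that of batch 2 (0%), with a smallest adjusted p of 0.183. At an unadjusted p under 0.05 there were 1577 such differences in either direction, and edgeR on whole reads gave 0 calls as well. The batch 3 effect was the lower one for 30 of 31 H/ACA snoRNAs, 50 of 56 C/D snoRNAs and 8 of 9 scaRNAs, with median differences of -0.76, -0.51 and -0.76, against 0.003 over all genes. Of those, 22, 17 and 4 had an unadjusted p under 0.05. The classes include Snora35, Snora5c, Snord92, Snord95, Scarna8 and Scarna17. These passed the filter of batch 3 only through FANS, so in batch 3 they had to be lower in INTACT. A difference between batches 2 and 3 was thus not shown for any single gene by the test over all genes.

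In batch 1, 596 genes were depleted (3.94%), the H/ACA median was -0.19, the C/D median -0.11 and the scaRNA median 0.04. The interaction put 656 of 14387 genes below batch 1 in batch 3 (4.56%), among them 13 of 31 H/ACA snoRNAs, 11 of 56 C/D snoRNAs, 4 of 9 scaRNAs and 4 of 6 other small structured RNAs, while 1 H/ACA snoRNA, Snora70, and 1 C/D snoRNA lay above. The rows that passed the filter of batch 3 only through FANS, Vaultrc5 among them, were also part of these classes. Lower values of H/ACA snoRNAs were not limited to batch 3, since in batch 1 25 of the 32 tested had lower means and 6 were depleted. Snora20 had a log2 difference of -0.83 (adjusted p = 9.66e-04) in batch 1 and -0.79 (adjusted p = 0.0977) in batch 2. In batch 1 the differences were -1.27 for Snora70, -1.16 for Snord17, -0.72 for Snora64, -0.65 for Snora78 and -0.62 for Snora7a. Snora23 had -0.17 in batch 1 and -0.72 (adjusted p = 0.0267) in batch 2, and Rnu12 had 0.00 and -0.10. For the microRNA rows the order was the other way, with medians of -0.41 in batch 1, -0.15 in batch 2 and 0.13 in batch 3. Penk was enriched in batch 1 (0.83, adjusted p = 3.96e-07), so that its batch 3 effect lay 1.49 lower on the log2 scale, and the batch 3 effects of Tac1, Kit, Jun, Drd1, Rprm and Lars2 were also called below those of batch 1. All of these genes were named as depleted in batch 3. The comparison with batch 1 uses the same batch 3 values, so it is no further support for their fall. The sex of the mice differed between these batches as the RNA shows. Xist ran from 84341 to 155314 and Ddx3y, on the Y chromosome, was at 0 in batch 1, whereas in batch 3 Xist ran from 13.3 to 49.4 and Ddx3y from 422 to 563, so that sex and batch cannot be told apart in the comparison of batches 1 and 3. The study also describes the RNA of batch 3 as less intact than that of batch 1.

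**Figure D5:**
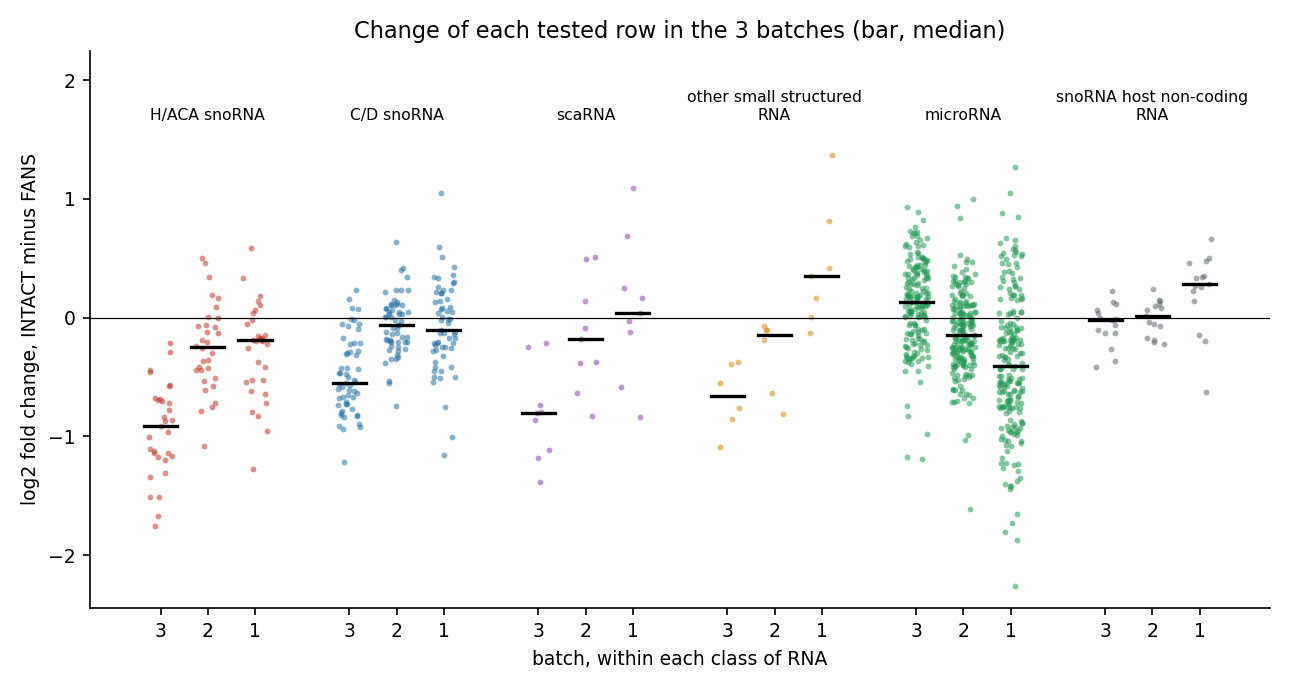
Log2 difference (INTACT minus FANS) of each tested gene of 5 small RNA classes and of the non-coding snoRNA hosts, in batches 3, 2 and 1, with 1 point per gene and a bar at the median. The H/ACA bars stand at -0.91, -0.25 and -0.19, and the host bars at -0.02, 0.01 and 0.28.

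Looked up gene by gene, the 50 depleted genes of batch 3 had lower means in batch 2 for 34, against 50.18% of all genes there, and 4 were depleted in it, as 0.0336% of all its genes were. In batch 1 they had lower means for 28, against 49.11% of all genes, and 5 were depleted, against 3.94% of all genes, and 2, Penk and Scarna2, were enriched. The 171 genes higher in batch 3 had higher means for 168 in batch 2 and for 152 in batch 1, against 49.8% and 50.9% of all genes, and 45 and 120 of them passed the adjusted p in the same direction there, against 124 of all 14876 genes (0.834%) in batch 2 and 2817 of all 15114 (18.6%) in batch 1. In batch 1, 8 of the 171 passed in the opposite direction, and 0 did in batch 2. The libraries of FANS also varied more among themselves in batch 3. Over 7357 genes with a mean of at least 100, the median SD of the log2 values was 0.135 in FANS and 0.104 in INTACT, and the SD was larger in FANS for 71.2% of the genes. Without FANS replicates 6 and 7 these values were 0.122 for FANS and 63.0% of the genes.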

How the data were processed

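The deposited values are a signal per gene, the read counts of a library divided by its DESeq size factor. According to their methods, the authors used STAR with mm10, dropped reads that shared a molecular identifier and counted unique reads per gene with HTSeq. What 1 read was worth in a library was read from its smallest values, and at least 99.9959% of the values of a batch 3 library were then whole reads within 0.1 read. The 5 summary lines, such as reads outside features (82.6 to 87.5% of the reads), were left out. Columns that could not be given to a sample numbered 0.

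INTACT and FANS were compared with limma 3.58.1 in R 4.3.3 (lmFit and eBayes, trend on) after log2(normalized count + 1), for genes at a mean of at least 5, with Benjamini-Hochberg adjustment. Effects of batches were compared with an interaction term in limma, each effect within its own table. Alternatives were pseudocounts of 0.5 and 5, no filter and a mean of at least 20, scaling to the 75th percentile, scaling without the small RNAs, quantile normalization, array weights, edgeR 4.0.16 and DESeq2 1.42.0 on the whole reads, a replicate block, other fold thresholds and leaving out each library. The members and lists were chosen with earlier results of these data known. Named were all enriched genes, all depleted genes outside the small RNA classes, in each class up to 6 (snoRNAs) or 3 depleted genes with the largest falls, a mean of at least 20 and no overlap, the genes that the study names, Arc and Sun1, the gene with the smallest p in each list of 3 or more, and the 2 largest called differences from another batch in each direction with a mean of at least 50. Genes added later are marked in the text. For 1 named gene no result is reported here. Positions and hosts came from RefSeq (GRCm38.p6), matched by symbol for 13784 tested genes and by an older symbol for 618, with 38 unmatched.

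On simulated counts for 14440 genes of batch 3, 34.7% of genes changed 1.5-fold, 85.3% changed 2-fold and 96% changed 3-fold were called, and 0.021% of unchanged genes were. By the adjusted p alone, 69.3% of the genes changed 1.5-fold passed. Reads on genes, 4205665 to 5716318 per library, set the precision, and standard errors hold both counting error and library spread.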

Additional observations from a re-analysis of the deposited data

Results flagged for a closer look

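Among 172 groups of 5 or 7 libraries of named genes, 14 held a library far from the others of its technique by Dixon's test at the 95% level, which chance does in about 1 of 20 groups. In FANS, these were replicate 1 for 5730408K05Rik (148 normalized counts, the others 52.9 to 91.2) and Mir3068 (121, the others 47.2 to 61.5), replicate 2 for Rpap3 (136) and Csf1r (5.23), replicate 5 for Hhip (33.5) and replicate 7 for Rprm (38.9). In INTACT, they were replicate 2 for Snora3 (39.1) and Sun1 (1352), replicate 3 for Snora20 (9.03), Snora70 (382) and Rn45s (146363), replicate 4 for Snord47 (256), and replicate 5 for Snord17 (2912) and Rpl37 (47.7).

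By the interaction term in limma, 160 comparisons of named genes with batches 1 and 2 were made. The technique effect differed in 44 of them, all with batch 1, and in 0 with batch 2. Over all genes, 656 of 14387 were called below batch 1 and 562 above it, and 0 of 14357 differed from batch 2. Many named genes were chosen by their batch 3 values or by this difference, so the 44 do not measure how common it is. The differences (batch 3 minus batch 1, log2) are given here by group. Among H/ACA snoRNAs they were -1.51 for Snora23, -1.33 for Snora21, -1.32 for Snora3, -1.28 for Snora47, -1.09 for Snora81, -0.99 for Snora15, -0.76 for Snora74a and 0.70 for Snora70. Among the other small RNAs they were -1.09 for Snord22, -1.08 for Snord104, -1.81 for Scarna2, -1.43 for Scarna3b, -1.16 for Scarna3a, -1.09 for Rnu12, -0.93 for Rmrp, -0.80 for Rpph1, -1.03 for Mir6516, -1.56 for Mir6236 and 2.52 for Mir128-2. Long non-coding and ribosomal RNAs gave -0.85 for 5730408K05Rik, 2.37 for 9530091C08Rik, 0.90 for Malat1 and -0.96 for Rn45s. Among neuronal markers and depleted protein coding genes other than Lars2 they were -1.50 for Tac1, -1.49 for Penk, -1.14 for Jun, -1.01 for Kit, -0.93 for Drd1, -0.89 for Slc17a6, -0.82 for Gad1 and -0.81 for Rprm. Glial genes gave -1.35 for Slc1a3, -1.30 for Apoe, -0.86 for Mal, -0.81 for Ptgds and -0.65 for Cldn11. The remaining genes were Rplp1 (-0.92), Rpl7 (-0.86), Rpl37 (-0.84), Hist2h2bb (-0.88), Hspa8 (-0.87), Herpud1 (-0.81), Cox6c (-0.71) and Lars2 (-0.68). The libraries of batches 3 and 1 also differ in the sex that their RNA shows, which cannot be told apart from the batch.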

How the results depend on the processing

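The H/ACA median and count kept their direction, and stayed within 1.5 times the reported count, under every alternative run. The 2 enriched genes did not: 0 were called with a pseudocount of 5 or at 2-fold, 1 with scaling without the small RNAs, 9 with no filter, 12 with array weights, 17 without FANS replicates 6 and 7 (chosen after seeing the data) and 171 with no fold threshold. Depleted genes numbered 22 at 2-fold. By the adjusted p alone, 331 genes were higher and 210 lower with array weights, and 327 and 253 without FANS replicates 6 and 7. Depleted C/D snoRNAs numbered 7 with no filter, 22 with array weights and 21 without FANS replicates 6 and 7. DESeq2 called 3 scaRNAs and 1 other small structured RNA, with no filter the median of the latter class was -0.39, and 6 microRNA rows were depleted. Lpar1 was at -0.074 without FANS replicates 6 and 7.

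Replicate numbers did not pair the libraries (correlations of same-numbered deviations -0.030 to 0.112). With a replicate block, which leaves FANS replicates 6 and 7 without a partner, 29 genes were enriched and 85 depleted, 554 were higher and 548 lower by the adjusted p, 28 C/D snoRNAs were depleted, Lpar1 was at -0.074, and 223 and 45 genes lay below and above batch 2.

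Leaving out single libraries gave 0 to 8 enriched and 32 to 64 depleted genes, 65 to 299 higher and 36 to 187 lower by the adjusted p, 3 to 21 depleted C/D snoRNAs and 1 to 3 other small structured RNAs, and 0 to 1 gene below batch 2. Lpar1 ranged from -0.075 to 0.16 and Apoe from -0.11 to 0.075. The cause of these changes was not tested. INTACT replicate 3 mattered most, with 10 of the 35 named calls lost without it. Changes of 1.5-fold lie at the fold threshold of a call. How far depth or the number of libraries limits such calls was not tested.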
